A study of Mus musculus with 18 samples.

Results

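The 8 genes described here encode the subunits of condensin I and condensin II, Smc2, Smc4, Ncapd2, Ncapg, Ncaph, Ncapd3, Ncapg2 and Ncaph2. They were chosen by gene name, and all 8 were found among the 31643 genes of the table, once each. Condensins are ring-shaped protein complexes that extrude and hold loops of chromatin, and they compact chromosomes for mitosis and meiosis. Both complexes share the ATPases SMC2 and SMC4. Condensin I adds the kleisin NCAPH, which closes the ring, and the HEAT-repeat subunits NCAPD2 and NCAPG. Condensin II adds NCAPH2, NCAPD3 and NCAPG2 in the same roles. Condensin II resides in the nucleus through interphase, whereas condensin I gains full access to chromosomes once the nuclear envelope breaks down.

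RNA was measured in 18 libraries of GC1spg cells, a mouse line that the study uses as a model of spermatogonia and spermatocytes. The 4 groups were siTGR5 cells with busulfan (siTGR5 Bu, n = 4), siTGR5 cells with DMSO (siTGR5 DMSO, n = 5), siGFP cells with busulfan (siGFP Bu, n = 4) and siGFP cells with DMSO (siGFP DMSO, n = 5). siTGR5 is an siRNA against TGR5, a bile acid receptor encoded by Gpbar1, and siGFP is the control siRNA, so that every group was transfected. Busulfan (Bu) is an alkylating chemotherapy drug that crosslinks DNA, and DMSO is its vehicle. The methods give a Bu exposure of 200 µM for 24 h, applied after 12 h of starvation, and do not mention the siRNAs. Whether same-group libraries came from separate cultures is not stated, so the p-values below measure only the spread between libraries, which may be technical.

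Total counts ran between 24745523 and 49638166 reads per library. Gpbar1 lay under 1 CPM (read counts relative to the TMM-scaled total of the library) in every library, at 0.111 to 0.491 CPM in siTGR5 DMSO and 0.443 to 0.864 CPM in siGFP DMSO (edgeR, log2 fold change -0.99 ± 0.28 SE, adjusted p = 0.0135). Under Bu it lay at 0.288 to 0.401 CPM in siTGR5 cells and 0.210 to 0.620 CPM in siGFP cells, and the difference did not pass the test (edgeR, adjusted p = 0.425). Of 10 germ cell markers in the table, 2 exceeded 1 CPM in any library, Gfra1 and Id4, while Ddx4, Dazl, Zbtb16, Stra8 and Sycp3 were at or near 0 throughout. Somatic markers were mixed within each list. Of 6 fibroblast markers, Col1a1 (2300 to 3501 CPM), Vim and Col1a2 were high, Col3a1 had a median of 6.70 CPM, and Pdgfrb (0.769 CPM) and Thy1 (0 CPM) were at or near 0. Of 5 Sertoli markers in the table, Wt1 lay between 188 and 250.4 CPM and Gata4 at a median of 22.2 CPM, with Sox9 at 3.69, Amh at 0.301 and Cldn11 at 0 CPM. Of 3 Leydig markers, Cyp11a1 had a median of 5.39 CPM, and Star and Insl3 stayed under 1 CPM. Rod photoreceptor transcripts summed to over 1 CPM in 16 of the 18 libraries and to over 5 CPM in 7, called the rod-transcript libraries below. These were siTGR5 Bu replicates 1 and 3, siTGR5 DMSO replicate 4, siGFP Bu replicates 2 and 4, and siGFP DMSO replicates 1 and 5. Fits without them hold fewer libraries in every group, with only replicates 2 and 4 of siTGR5 Bu and 1 and 3 of siGFP Bu.

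Promoters are shown for Ncapg, the member that differed most with Bu, and for Ncaph2, which differed least. Those of Smc2 and Ncapd2 were added because they hold the same motifs as Ncapg. Ncaph, which differed most after Ncapg and holds none of the motifs, is not printed. The printed set was thus picked partly by motif and does not show how motifs relate to the Bu difference. Each printed window is the stretch before the gene start in the RefSeq table (GRCm38.p6), 250 bases long except for Ncapd2. The RefSeq start of Ncapd2 lies inside the GENCODE gene, so its window was ended at the GENCODE start, leaving 135 bases. The last few bases of the Ncapg window also lie past the GENCODE start and were kept. Of the 8 members, 7 had an entry, and Smc4 was not matched. Capitals mark CCAAT, read as ATTGG on the other strand, the box bound by NF-Y. They also mark TTTGAA, read as TTCAAA on the other strand, the core of the cell cycle homology region of many late cell cycle genes.
Ncapg, chr5:45669675-45669924, plus strand: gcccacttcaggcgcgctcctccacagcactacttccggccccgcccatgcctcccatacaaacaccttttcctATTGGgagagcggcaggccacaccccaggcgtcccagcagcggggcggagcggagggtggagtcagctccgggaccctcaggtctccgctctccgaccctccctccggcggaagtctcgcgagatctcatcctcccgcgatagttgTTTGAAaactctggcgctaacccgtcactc
Smc2, chr4:52438971-52439220, plus strand: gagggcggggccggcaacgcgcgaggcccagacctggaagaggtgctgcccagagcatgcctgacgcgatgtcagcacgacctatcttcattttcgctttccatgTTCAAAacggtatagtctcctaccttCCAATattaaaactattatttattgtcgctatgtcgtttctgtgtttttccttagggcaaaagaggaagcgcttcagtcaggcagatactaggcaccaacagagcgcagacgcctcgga
Ncapd2, chr6:125191702-125191836, minus strand: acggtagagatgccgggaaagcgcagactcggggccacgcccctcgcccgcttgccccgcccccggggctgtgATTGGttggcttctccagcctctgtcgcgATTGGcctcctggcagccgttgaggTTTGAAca
Ncaph2, chr15:89355469-89355718, plus strand: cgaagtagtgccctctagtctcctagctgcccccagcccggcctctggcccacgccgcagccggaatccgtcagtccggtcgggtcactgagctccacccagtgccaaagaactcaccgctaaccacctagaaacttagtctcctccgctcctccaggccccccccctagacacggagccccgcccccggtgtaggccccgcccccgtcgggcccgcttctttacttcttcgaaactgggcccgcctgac

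Over the full 250 bases and both strands, CCAAT stood in 3 of the 7 members with an entry, Smc2, Ncapd2 and Ncapg, and in 33.8% of the 32851 promoters of the table. TTTGAA stood in 4 of 7, Smc2, Ncapd2, Ncapg and Ncapg2, against 16% of all promoters. In Ncapg it covered the bases 30 to 25 before the RefSeq start, and in Ncapg2 the bases 18 to 13, which in Ncapg2 lie inside the GENCODE gene. The E2F-like TTTNGCGC stood in 2 of 7, Ncapd2 and Ncapg2, against 1.13%, and TTTAAA in none of the first entries, against 12.1%. The TTTNGCGC of Ncapd2 likewise lies inside its GENCODE gene. None of these motifs stood in the window of Ncaph. Its log2 fold change with Bu, 0.62 in siTGR5 and 0.48 in siGFP cells, was second only to that of Ncapg. Every member was counted by its first entry, while the shares of all promoters cover every entry. Another entry of Ncapd3, not counted, holds TTTGAA and TTTAAA. Matched runs of different motifs did not overlap in these 7 windows. These matches describe letters in a window, and binding was not measured.

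The mRNAs of the subunits were present at very different levels for their length. Divided by the median transcript length of the deposited table, Ncaph2 lay highest, at a median of 531 CPM per kb and a range of 498 to 581 over the 18 libraries. Smc4 came next (285 to 448 CPM per kb), then Ncapd2 (173 to 245) and Smc2 (113 to 189.7), whose ranges overlapped each other. Ncapg2 (66.8 to 106), Ncaph (53.5 to 87.8) and Ncapg (29.7 to 57.2) followed, with the ranges of neighbours overlapping, and Ncapd3 was lowest at 15.03 to 20.3 CPM per kb. These ranges span all 4 groups and hold the Bu differences described below.

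The order in the middle depended on the length used. The deposited length of Smc4 is 756 bases, of Ncapd2 682 and of Ncaph2 738, whereas their longest protein-coding transcripts in GENCODE M21 span 4316, 4629 and 3302 bases. With the longest coding transcript as divisor, Ncaph2 stayed highest at 111 to 129.8 CPM per kb and Ncapd3 lowest at 11.8 to 15.9. The ranges of Ncapg2, Ncapd2, Ncaph and Ncapg then overlapped, with medians of 29.0, 28.2, 27.3 and 26.9 CPM per kb. Of the summed CPM per kb of the 8 members, Ncaph2 made up 36.8% ± 2.81 with the deposited length and 32.8% ± 2.88 with the coding length, and Ncapd3 1.16% ± 0.0799 and 3.63% ± 0.273 (SD, n = 18 libraries).

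**Figure D1:**
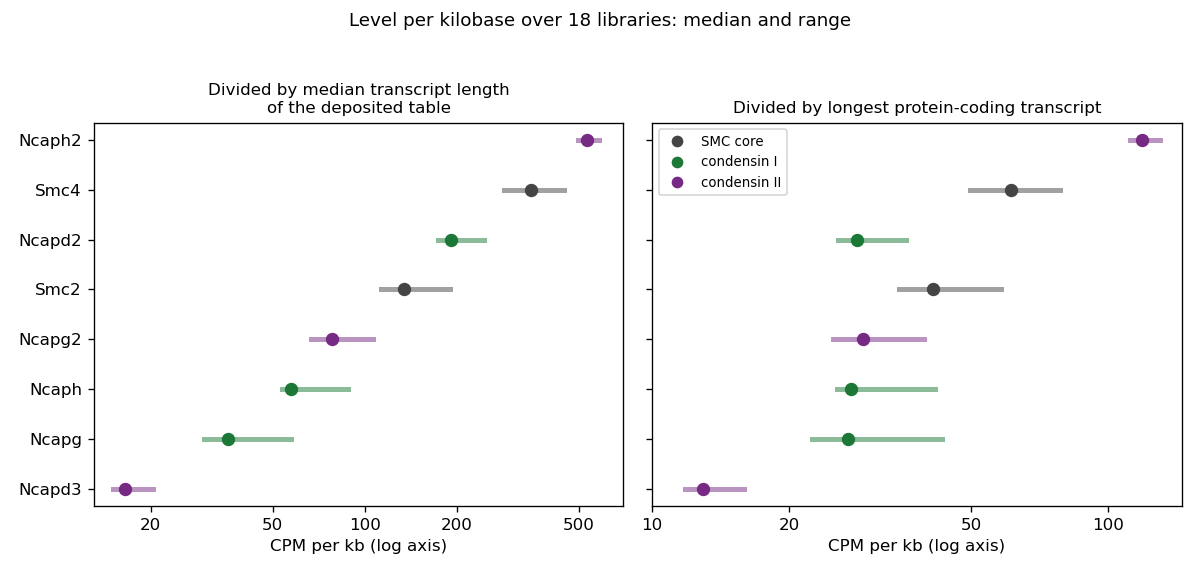
Level of each condensin subunit mRNA in CPM per kb on a log axis, as the median (point) and the range (line) over the 18 libraries, with the deposited median transcript length on the left and the longest protein-coding transcript on the right. Ncaph2 is highest and Ncapd3 lowest in both panels, while Ncapd2 stands above Smc2 on the left and below it on the right.

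Exposure of siGFP cells to Bu was compared with DMSO to see what the drug does in control-siRNA cells. Of the 8 members, 7 were higher in siGFP Bu than in siGFP DMSO and none lower, at an adjusted p under 0.05 over the 14304 genes tested, of which 28.1% were called, 14.3% as higher and 13.8% as lower (edgeR). The members' median log2 fold change was 0.35, beside 0.0031 over all genes tested. The 2 groups did not overlap for 6 of 8 members, all with Bu above DMSO, against 10.4% of tested genes. Bulk RNA does not tell whether a larger share of cells held these transcripts or each cell held more.

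Of the SMC core, Smc2 (chromosome 4, 52439243 to 52488260, plus strand, GRCm38) encodes an ATPase found in both complexes. It had 305, 242, 280.4 and 303 CPM in the siGFP Bu libraries, against 217, 207, 188, 207 and 228 CPM in the siGFP DMSO libraries. All 4 Bu libraries lay above all 5 DMSO libraries, with replicate 2 the lowest of the Bu group. The log2 fold change was 0.45 ± 0.07 SE (edgeR, adjusted p = 0.000158; exact two-sided permutation p = 0.00794, the smallest that 4 against 5 libraries can give). Smc4 (chromosome 3, 69004738 to 69034623, plus strand), its partner ATPase, had 338, 292, 309 and 331 CPM in siGFP Bu, against 254, 235, 215, 248 and 274 CPM in siGFP DMSO. The groups were again apart, and the log2 fold change was 0.39 ± 0.06 SE (edgeR, adjusted p = 0.000298).

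The condensin I subunits held the largest change of the 8. Ncapg (chromosome 5, 45669919 to 45700546, plus strand), a HEAT-repeat subunit, had 156, 144, 153 and 160.0 CPM in siGFP Bu, against 96.2, 89.8, 83.2, 91.8 and 103 CPM in siGFP DMSO. The lowest Bu library thus stood well above the highest DMSO library. The log2 fold change of 0.74 ± 0.05 SE ranked 40 of 14304 by p and exceeded the fold change of 99.5% of tested genes (edgeR, adjusted p = 2.93e-07). Ncaph (chromosome 2, 127103809 to 127133954, minus strand), the kleisin, had 102, 97.8, 102 and 102 CPM in siGFP Bu, against 72.8, 72.9, 71.9, 73.7 and 73.0 CPM in siGFP DMSO. Its libraries were the tightest of the 8 genes within DMSO, and the log2 fold change was 0.48 ± 0.03 SE (edgeR, adjusted p = 1.75e-07). Ncapd2 (chromosome 6, 125168007 to 125191701, minus strand), the other HEAT-repeat subunit, had 158, 143, 163 and 149 CPM in siGFP Bu, against 129, 132, 124, 126 and 119.8 CPM in siGFP DMSO. All Bu libraries were above all DMSO libraries, by a log2 fold change of 0.30 ± 0.04 SE (edgeR, adjusted p = 0.000192).

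Of the condensin II subunits, Ncaph2 and Ncapd3 had the smallest fold changes of the 8, while that of Ncapg2 was close to that of Ncapd2. Ncapg2 (chromosome 12, 116405402 to 116463731, plus strand), the counterpart of NCAPG, had 174, 139, 165 and 174 CPM in siGFP Bu, against 136, 129, 127, 135 and 134 CPM in siGFP DMSO. The groups did not overlap, although Bu replicate 2 came close to the DMSO range, and the log2 fold change was 0.31 ± 0.06 SE (edgeR, adjusted p = 0.000878). Ncaph2 (chromosome 15, 89355719 to 89372826, plus strand), the condensin II kleisin, had 423, 428, 396 and 425 CPM in siGFP Bu, against 378, 393, 396, 385 and 391 CPM in siGFP DMSO. Bu replicate 3 lay within the DMSO range, and the log2 fold change was 0.12 ± 0.04 SE (edgeR, adjusted p = 0.0216; exact two-sided permutation p = 0.0159). Leaving out siGFP DMSO replicate 1 ended that call (0.10, edgeR adjusted p = 0.0776), and so did leaving out replicate 4 (0.11, adjusted p = 0.0673). The call was also lost without the 4 siGFP libraries over 5 CPM of rod transcripts (0.08, edgeR adjusted p = 0.244), in a fit of fewer libraries. Ncapd3 (chromosome 9, 27030175 to 27095315, plus strand), the counterpart of NCAPD2, had 77.7, 65.3, 74.5 and 75.8 CPM in siGFP Bu, against 69.3, 65.5, 64.8, 68.0 and 70.7 CPM in siGFP DMSO. Bu replicate 2 fell among the DMSO libraries, and the log2 fold change of 0.13 ± 0.05 SE did not pass the test (edgeR, adjusted p = 0.0604; exact two-sided permutation p = 0.0952). Without that library it was 0.18 and passed (edgeR, adjusted p = 0.00466), and it also passed in 1 fit of all 18 libraries (0.13, adjusted p = 0.0306).

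**Figure D2:**
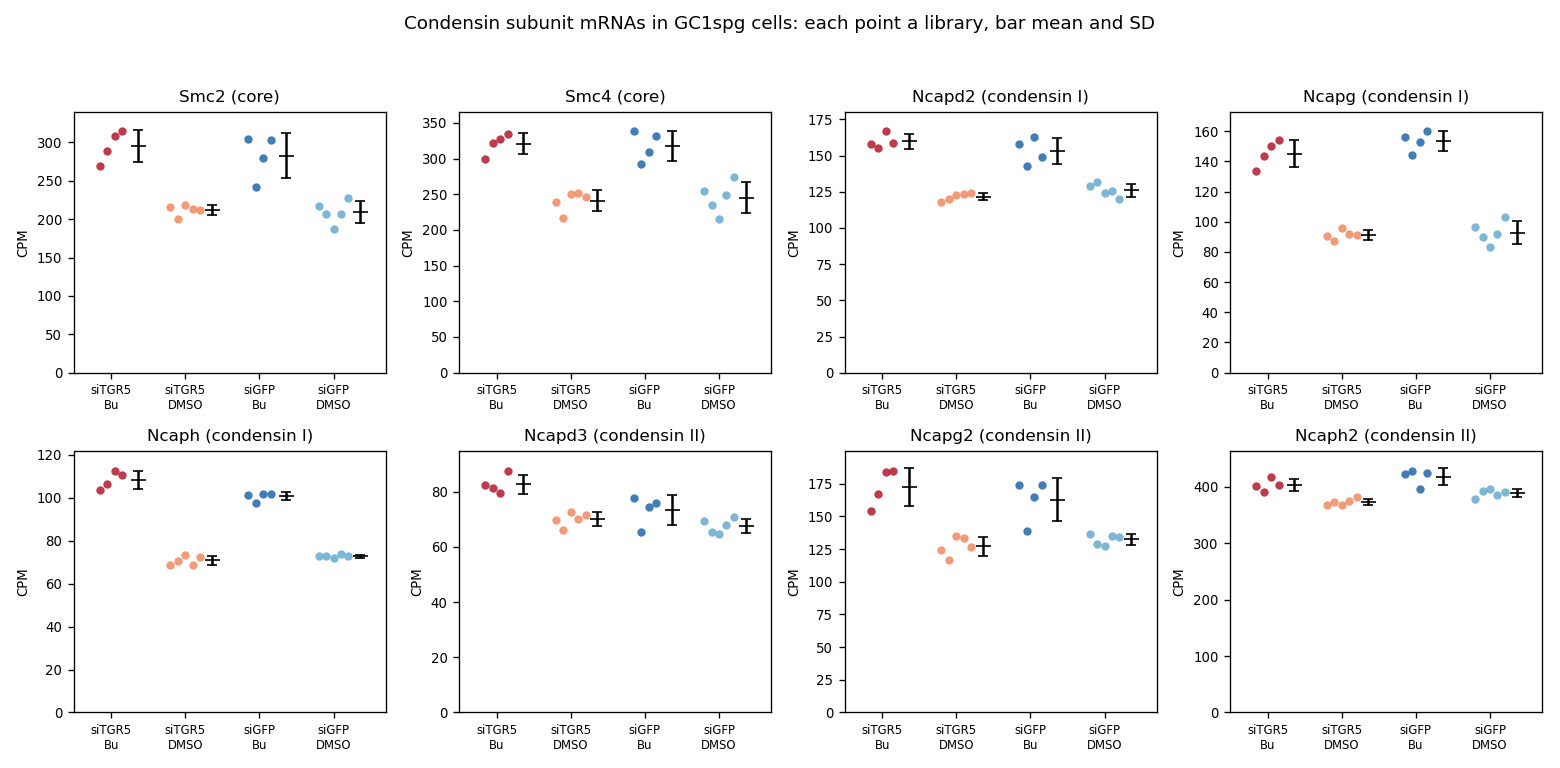
CPM of each condensin subunit in every library (points), with the group mean and SD (bars), for siTGR5 Bu, siTGR5 DMSO, siGFP Bu and siGFP DMSO; every axis starts at 0. Bu lies above DMSO with no overlap in each panel of siTGR5 cells, and in siGFP cells in all panels but Ncapd3 and Ncaph2.

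Among the siGFP Bu libraries, replicate 2 was the lowest for 7 of the 8 members, on average 0.14 below the group median on the log2 scale, and it held 36.9 CPM of rod transcripts. Among the siGFP DMSO libraries, replicate 3 was the lowest for 6 of 8, at 2.06 CPM of rod transcripts. Without the 4 siGFP libraries over 5 CPM of rod transcripts, 7 of 8 members were still called higher, with Ncapd3 in (log2 fold change 0.22, edgeR adjusted p = 0.00794) and Ncaph2 out. A list of transcripts named here as nuclear-retained moved with the groups too. It holds noncoding RNAs such as Malat1 and Neat1, and also mRNAs of protein-coding genes such as Ccnl1, Clk1 and Nktr. Of the 14 tested, 12 were lower in siGFP Bu and none higher. Of all tested genes 13.8% were lower there. The mean log2 CPM of the list's 14 genes was 5.33 ± 0.18 in siGFP Bu and 5.81 ± 0.04 in siGFP DMSO (SD, n = 4 and 5), with no overlap. With that mean as a covariate 2 of 8 members stayed called, Ncapg (log2 fold change 0.82, adjusted p = 0.00858) and Ncaph (0.50, adjusted p = 0.0111), and 249 of all genes in place of 4023 (edgeR). The fold changes of the 8 members remained positive in that fit, between 0.16 for Ncapd2 and 0.82 for Ncapg. The estimate of Ncapd2 was lower than without the covariate (0.30), and those of the other members were higher. The covariate separates the siGFP groups, and why the calls were lost was not tested.

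The same comparison in siTGR5 cells used other libraries throughout. All 8 members were higher in siTGR5 Bu than in siTGR5 DMSO, where 30.7% of the 14372 genes tested were called, 15.5% as higher and 15.2% as lower (edgeR). In none of the 8 did the groups overlap, against 11.6% of tested genes with Bu above DMSO throughout. The members' median log2 fold change was 0.44, beside 0.0037 over all genes tested.

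Ncapg again differed most, with 133, 143, 150.0 and 154 CPM in siTGR5 Bu, against 90.7, 87.0, 96.0, 92.1 and 91.2 CPM in siTGR5 DMSO (log2 fold change 0.68 ± 0.04 SE, edgeR adjusted p = 1.70e-09). Ncaph had 104, 106, 113 and 111 CPM in siTGR5 Bu, against 68.8, 70.6, 73.5, 68.6 and 72.6 CPM in siTGR5 DMSO (0.62 ± 0.03 SE, edgeR adjusted p = 7.96e-10). Both kept a gap between the groups wider than the spread within either. Ncapd2 had 158, 156, 167 and 159 CPM in siTGR5 Bu, against 118, 120.1, 123, 124 and 124 CPM in siTGR5 DMSO (0.40 ± 0.03 SE, edgeR adjusted p = 3.53e-08).

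Smc2 had 269, 289, 308 and 315 CPM in siTGR5 Bu, against 216, 200.3, 218, 213 and 213 CPM in siTGR5 DMSO (log2 fold change 0.49 ± 0.04 SE, edgeR adjusted p = 1.03e-07). Smc4 had 299, 322, 328 and 334 CPM in siTGR5 Bu, against 239, 217, 251, 252 and 246 CPM in siTGR5 DMSO (0.43 ± 0.04 SE, edgeR adjusted p = 9.33e-07). For both ATPases replicate 1 was the lowest of the Bu group and replicate 2 the lowest of the DMSO group. Ncapg2 had 154, 167, 184 and 185 CPM in siTGR5 Bu, against 125, 117, 135, 133 and 126 CPM in siTGR5 DMSO (0.45 ± 0.05 SE, edgeR adjusted p = 4.82e-06).

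Ncapd3 had 82.5, 81.3, 79.4 and 87.5 CPM in siTGR5 Bu, against 69.8, 66.1, 72.6, 70.2 and 71.7 CPM in siTGR5 DMSO (log2 fold change 0.25 ± 0.04 SE, edgeR adjusted p = 5.32e-05). Ncaph2 had 402, 391, 417 and 403 CPM in siTGR5 Bu, against 368, 372, 368, 375 and 382 CPM in siTGR5 DMSO (0.13 ± 0.03 SE, edgeR adjusted p = 0.00285). These condensin II subunits showed the smallest differences of the 8, as groups that stood apart by a narrow margin. Without the 3 siTGR5 libraries over 5 CPM of rod transcripts, in a fit of fewer libraries, the Ncaph2 call was lost (0.10, edgeR adjusted p = 0.0907). The other 7 members were still called. Of the 14 nuclear-retained transcripts tested, 9 were lower and 1, Gm26917, was higher in siTGR5 Bu (edgeR). Of all tested genes 15.2% were lower and 15.5% higher there. The nuclear-retained mean log2 CPM was 5.63 ± 0.10 in siTGR5 Bu and 5.89 ± 0.15 in siTGR5 DMSO (SD, n = 4 and 5), again with no overlap, and with it as a covariate all 8 members stayed called. Leaving out any 1 of the 9 siTGR5 libraries left all 8 called (edgeR).

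**Figure D3:**
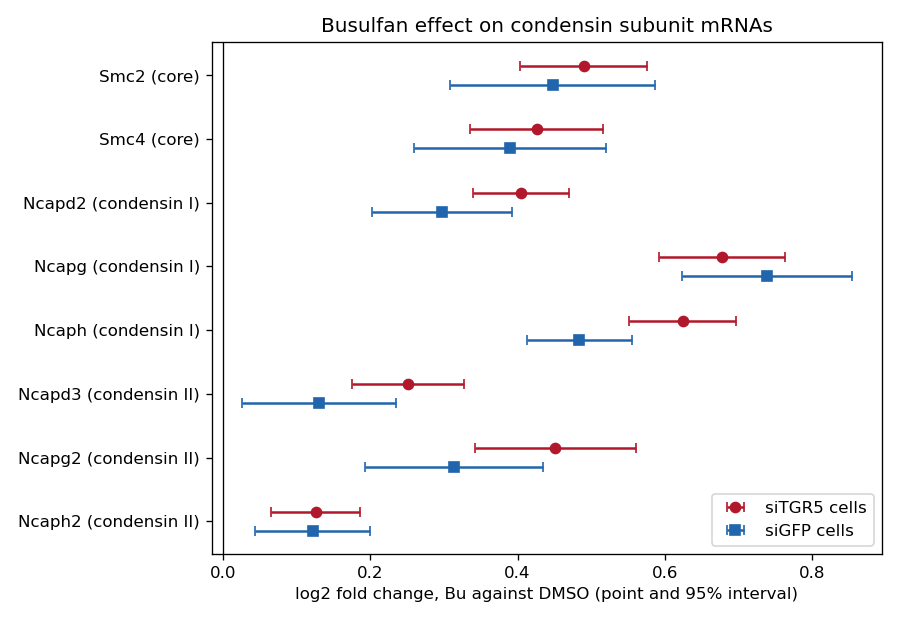
Log2 fold change of Bu against DMSO for each condensin subunit with its 95% interval, in siTGR5 cells (circles) and siGFP cells (squares). Ncapg stands farthest right in both, at 0.68 and 0.74, and Ncaph2 lies at 0.13 and 0.12.

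Because the log2 fold changes in siGFP cells ran from 0.30 to 0.74 for the 3 condensin I subunits and from 0.12 to 0.31 for the 3 condensin II subunits, of which Ncapd3 was not called, the balance of both complexes was followed library by library. The mean log2 CPM per kb of Ncapd2, Ncapg and Ncaph, minus that of Ncapd3, Ncapg2 and Ncaph2, was -0.0037 ± 0.02 in siTGR5 Bu and -0.30 ± 0.03 in siTGR5 DMSO (SD, n = 4 and 5). In siGFP cells it was 0.04 ± 0.05 under Bu and -0.28 ± 0.02 under DMSO (SD, n = 4 and 5). In both siRNA arms each Bu library lay above each DMSO library, with shifts of 0.29 in siTGR5 cells and 0.32 in siGFP cells. The score averages the same members in the same libraries, so its shifts restate their fold changes and add no further evidence. The subunits did not split cleanly by complex. Ncapg2 of condensin II had a larger log2 fold change than Ncapd2 of condensin I, at 0.45 against 0.40 in siTGR5 cells and 0.31 against 0.30 in siGFP cells. The shift does not depend on the transcript length, which cancels in it, whereas the level does: with the coding length the siTGR5 means were -0.10 under Bu and -0.40 under DMSO, and the siGFP means -0.06 and -0.38. Leaving out any 1 library kept the shift between 0.285 and 0.304 in siTGR5 cells and between 0.308 and 0.337 in siGFP cells. No test is given for a score over chosen genes, and mRNA levels do not give the amounts of the assembled complexes.

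**Figure D4:**
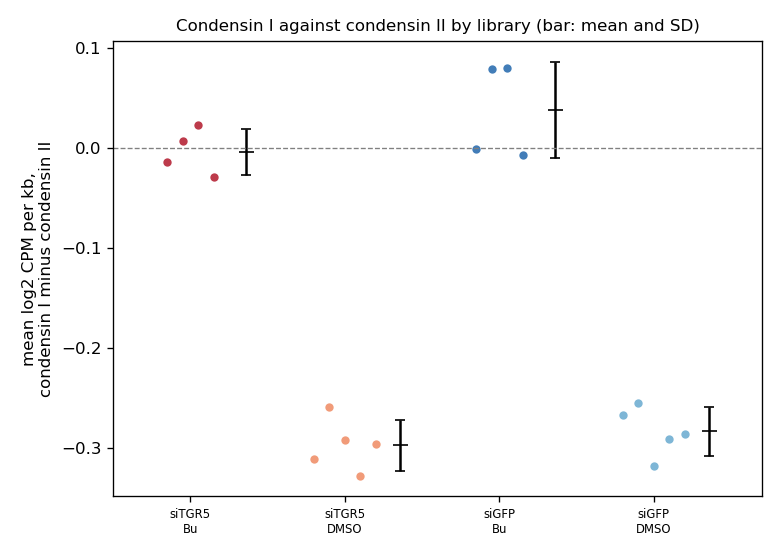
Mean log2 CPM per kb of the condensin I subunits minus that of the condensin II subunits in each library (points), with the group mean and SD (bars), by group. The 8 Bu libraries lie between -0.03 and 0.08, above all 10 DMSO libraries, which lie between -0.33 and -0.26.

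The siRNAs were then compared within each treatment, in fits that share these same libraries with the Bu comparisons. In DMSO, none of the 8 members was called between siTGR5 and siGFP, although 28.3% of the 14292 genes tested were (edgeR). At an unadjusted p under 0.05 stood 1 member, Ncaph2, with a mean of 373 ± 5.83 CPM in siTGR5 DMSO and 389 ± 7.16 CPM in siGFP DMSO (SD, n = 5 each; log2 fold change -0.06 ± 0.03 SE, edgeR adjusted p = 0.0993; exact two-sided permutation p = 0.0159). DESeq2 called that 1 gene (adjusted p = 0.0428). The 95% intervals of the 8 log2 fold changes were 0.11 to 0.22 wide, and Smc2 for example had 212 ± 7.01 CPM in siTGR5 DMSO and 209 ± 14.8 CPM in siGFP DMSO (SD, n = 5 each), with an interval of -0.07 to 0.11.

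Under Bu, 1 of 8 members was called higher in siTGR5 than in siGFP cells, Ncapd3. Of the 13971 genes tested 30.3% were called, and 13.8% as higher (edgeR). The 1 of 8 is no larger a share than that 13.8%, so the count says nothing about the members as a set. Ncapd3 averaged 82.7 ± 3.49 CPM in siTGR5 Bu and 73.3 ± 5.51 CPM in siGFP Bu (SD, n = 4 each), and all 4 siTGR5 libraries lay above all 4 siGFP libraries. The log2 fold change was 0.16 ± 0.05 SE (edgeR, adjusted p = 0.0299; exact two-sided permutation p = 0.0286, the smallest that 4 against 4 can give). Leaving out siTGR5 Bu replicate 1 gave 0.17 and ended the call (edgeR, adjusted p = 0.0548). The same held for its replicate 2, at 0.17 (adjusted p = 0.0541), and for its replicate 4, at 0.14 (adjusted p = 0.102). The call was also lost without the rod-transcript libraries (0.14, adjusted p = 0.11) and with the nuclear-retained covariate (0.11, adjusted p = 0.468; edgeR). Ncaph also did not overlap, at 108 ± 4.07 CPM in siTGR5 Bu and 101 ± 2.01 CPM in siGFP Bu (SD, n = 4 each), but missed the threshold (0.09 ± 0.04 SE, edgeR adjusted p = 0.101). These 2 of 8 members without overlap compare with 15.6% of tested genes that lay higher throughout.

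Whether the Bu effect itself differed between the siRNAs was tested as an interaction over all 18 libraries. None of the 8 members passed, where 1.37% of the 14783 genes tested did, and DESeq2 called none either. At an unadjusted p under 0.05 stood 1 member, Ncaph, whose Bu effect was larger in siTGR5 than in siGFP cells by 0.14 ± 0.05 SE (edgeR, adjusted p = 0.135). The intervals of the other 7 differences included 0, as for Ncapg (-0.21 to 0.09) and Ncapd3 (-0.0058 to 0.25). The 95% intervals of the 8 members were 0.18 to 0.35 wide.

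Most genes of a list of chromosome condensation partners, which also holds mitotic regulators such as Ccnb1, Ccna2, Plk1 and Bub1, were higher with Bu. This list and those of the other SMC complexes below were written with earlier results of these data known. Their counts are therefore no independent support. Of 23 chromosome condensation partners, which include mitotic kinases, the chromosomal passenger complex and topoisomerase Top2a, 19 were higher and 0 lower in siTGR5 Bu than in siTGR5 DMSO, where 15.5% of all tested genes were higher, with a median log2 fold change of 0.64. In siGFP cells 19 were higher and 0 lower with Bu, where 14.3% of all tested genes were higher, with a median of 0.54 (edgeR). Cdk1, Aurkb, Nusap1 and Kif4 are given next because they had the smallest p of the list in this siGFP comparison. Cdk1, the mitotic cyclin-dependent kinase that phosphorylates condensin, had 215 ± 9.58 CPM in siGFP Bu and 132 ± 4.77 CPM in siGFP DMSO (SD, n = 4 and 5; log2 fold change 0.72 ± 0.04 SE, edgeR adjusted p = 5.82e-08). Aurkb, the passenger complex kinase that aids condensin I loading, had 91.0 ± 3.06 CPM in siGFP Bu and 57.7 ± 1.16 CPM in siGFP DMSO (0.67 ± 0.04 SE, edgeR adjusted p = 5.69e-08). Nusap1, a spindle protein, was higher by 0.84 ± 0.05 SE and Kif4, a chromokinesin that binds condensin I, by 0.56 ± 0.04 SE (edgeR adjusted p = 8.77e-08 and 1.29e-07). Akap8, Kmt5a, Phf8 and Csnk2a1, at -0.10 to 0.0082 in siGFP cells, were called in neither siRNA arm.

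The other SMC complexes are shown because they share the ring design of condensin. Of 14 genes of cohesin and its regulators, 6 were higher and 2 lower in siTGR5 Bu than in siTGR5 DMSO, and 4 were higher and 1 lower in siGFP Bu than in siGFP DMSO, with medians of 0.10 and 0.09. Over all tested genes 15.5% were higher and 15.2% lower in siTGR5 cells, and 14.3% and 13.8% in siGFP cells. In siGFP cells the called genes were Cdca5, the cohesin protector sororin (0.76 ± 0.04 SE, edgeR adjusted p = 5.69e-08), Esco2, the S-phase cohesin acetyltransferase (0.71 ± 0.09 SE, adjusted p = 4.60e-05), Rad21, the cohesin kleisin (0.25 ± 0.04 SE, adjusted p = 0.000656), Smc1a, and, lower, Mau2, part of the cohesin loader (-0.18 ± 0.04 SE, adjusted p = 0.00478). With the nuclear-retained covariate the siGFP calls of Rad21 (0.34, edgeR adjusted p = 0.144) and Mau2 (-0.19, adjusted p = 0.449) were lost. Of 9 genes of the SMC5/6 complex, a DNA repair complex, 4 were higher in siTGR5 Bu and 1 in siGFP Bu than in the matching DMSO cells, and 0 were lower, with medians of 0.09 and 0.10. The 1 of 9 in siGFP cells is no larger a share than the 14.3% of all tested genes called higher there, so the count says nothing about the complex. That gene was Nsmce2, its SUMO ligase (0.16 ± 0.04 SE, edgeR adjusted p = 0.0124), which lost that call without the rod-transcript libraries (0.13, adjusted p = 0.0914) and with the nuclear-retained covariate (0.20, adjusted p = 0.415). In siTGR5 cells Nsmce2 was not called (0.02, adjusted p = 0.654). Slf1, Nsmce4a and Nsmce3 missed the threshold in siGFP cells (0.15, 0.13 and 0.13; edgeR adjusted p = 0.0668, 0.0675 and 0.106) and passed it in siTGR5 cells (0.23, 0.18 and 0.18; adjusted p = 0.00551, 0.00119 and 0.0131). In siGFP cells Slf1 passed without siGFP DMSO replicate 5 (0.18, adjusted p = 0.0211), as did Nsmce4a (0.17, adjusted p = 0.00819), and in siTGR5 cells Nsmce3 missed it without siTGR5 Bu replicate 1 (0.14, adjusted p = 0.0521). The nuclear-retained covariate also ended the siTGR5 calls of Slf1 (0.23, edgeR adjusted p = 0.0711) and Nsmce3 (0.20, adjusted p = 0.0647), and leaving out the rod-transcript libraries ended that of Nsmce3 (0.14, adjusted p = 0.215). In siGFP cells Slf1 passed without the rod-transcript libraries (0.21, adjusted p = 0.0409), and Nsmce4a passed in 1 fit of all 18 libraries (0.13, adjusted p = 0.0349).

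**Figure D5:**
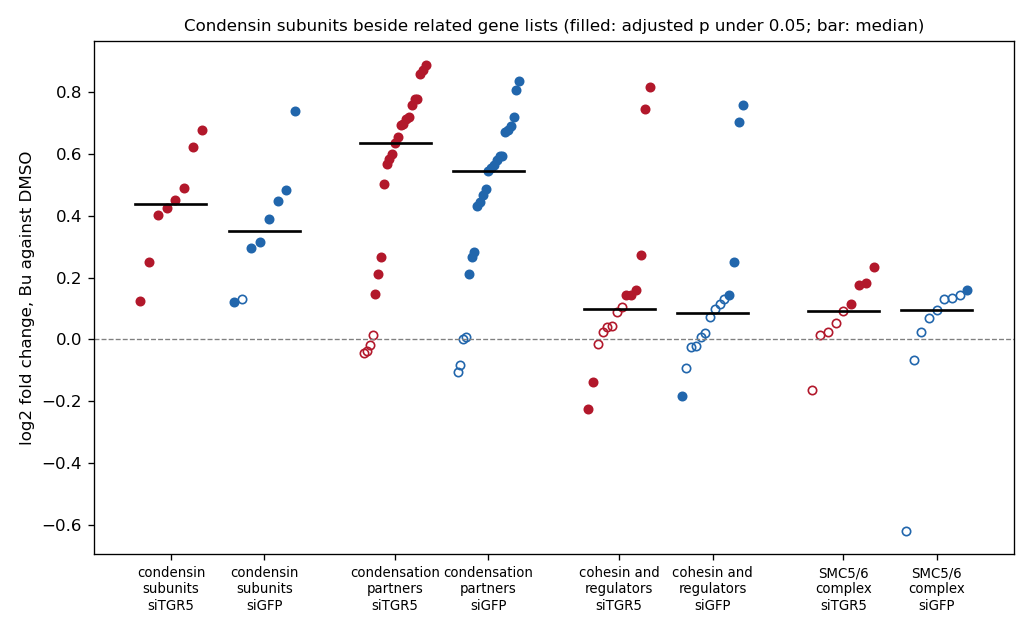
Log2 fold change of Bu against DMSO for the 8 condensin subunits, 23 condensation partners, 14 genes of cohesin and its regulators and 9 genes of the SMC5/6 complex, in siTGR5 cells (red) and siGFP cells (blue), with filled points at an adjusted p under 0.05 and a bar at the median. The medians lie at 0.44 and 0.35 for condensin, 0.64 and 0.54 for its partners, 0.10 and 0.09 for cohesin, and 0.09 and 0.10 for SMC5/6.

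The members followed their common profile over the 18 libraries to different degrees. By the root-mean-square distance on the log2 scale from the mean centred profile of the 8, Smc4 (0.0484), Ncapg2 (0.0524), Smc2 (0.0588) and Ncapd2 (0.0605) lay nearest. Ncaph (0.0884), Ncapd3 (0.12), Ncaph2 (0.154) and Ncapg (0.164) lay farther, Ncapg with a larger Bu difference than the mean profile and Ncaph2 with a smaller one. The mean centred profile ran between 0.07 and 0.29 in the 8 Bu libraries and between -0.25 and -0.10 in the 10 DMSO libraries. Among the other 14775 genes ranked, whose median distance was 0.244, the nearest were Dtl, a ubiquitin ligase adaptor of S phase (0.0411), Cenpi, a centromere protein (0.0411), Dbf4, the regulatory subunit of the replication kinase CDC7 (0.0456), Ckap5, a microtubule polymerase (0.0476), and Blm, a RecQ helicase (0.0486). Their log2 fold changes with Bu ran between 0.42 and 0.49 in siTGR5 cells and between 0.32 and 0.39 in siGFP cells. These genes were picked for closeness over the same 18 libraries, so fold changes near those of the members follow from the choice.

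Some of the counted genes share bases with other genes. The shared bases given here are of whole gene spans, introns included, and the overlap of exons was not computed. The kit kept strand, but the strand setting of the counting is not given in the sources used here, so reads of overlapping genes on opposite strands may have been counted together or dropped. Ncapg shares 3366 bases with Lcorl on the other strand, whose mean was 54.8 CPM and whose log2 fold change with Bu was 0.11 ± 0.05 SE in siTGR5 cells and 0.01 ± 0.08 SE in siGFP cells (edgeR adjusted p = 0.113 and 0.93). Ncaph2 shares 1190 bases with Sco2 (mean 9.44 CPM) and 896 bases with Tymp (0.154 CPM), both on the other strand. Neither partner of these members was called as changed with Bu, and Tymp was too low to be tested. Smc4 holds the microRNA genes Mir15b and Mir16-2 on its own strand, Ncapd2 holds Scarna10 and Gm28967, and Smc2 holds a pseudogene, Tmc4-ps, on the other strand.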

How the data were processed

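RNA-seq of 18 GC1spg libraries was read from 1 deposited table. Per the authors' methods, single-end reads of 50 bases from poly(A) RNA were mapped to mm10 with Hisat2 and Bowtie2 (the submitters' processing notes name TopHat2), unique alignments were kept and counted per gene with HTSeq and Ensembl release 77. The raw read counts deposited by the authors were used for every test. The deposited normalized signal (counts divided by a size factor per library) and the same signal divided by the median transcript length served for length and levels only. The authors' own log2 fold changes and p-values are in the table and were not used.

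Libraries were grouped by the siRNA and agent in their labels. Each pair of groups was fitted alone with edgeR 4.0.16 (R 4.3.3; TMM, filterByExpr with a minimum count of 10 and total of 15, quasi-likelihood F-test, Benjamini-Hochberg over all genes tested, call at an adjusted p under 0.05); the interaction used all 18 libraries. All 8 members passed the filter in each comparison. CPM values use TMM over 18 libraries, with 0.5 added before logarithms. Permutation tests were exact and two-sided, for single genes. Genes with no count in any library numbered 1363. The fitting code was tested on simulated data. Intervals cover 95%.

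Members, lists and tests were chosen with earlier results of these data known. Named genes were the 8 members, Gpbar1, up to 4 genes per list with the smallest p of Bu against DMSO in siGFP cells, and the 5 nearest profiles. Smc1a, the not-called partners and overlapping genes were named after their values were seen. Alternatives were DESeq2 1.42.0, RLE size factors, other low-count filters, 1 fit of all libraries, and the replicate number as a block. Further ones were a nuclear-retained covariate, other lengths, leaving out each replicate, and leaving out libraries over 5 CPM of rod transcripts. The totals bound counting error only; no member fell below 64.8 CPM in any library.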

Additional observations from a re-analysis of the deposited data

Results flagged for a closer look

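Among 32 sets of values checked for a lone sample, 8 members in each of 4 groups, 2 were set apart by a library far from the rest, and chance sets apart about 1 in 20. Ncaph in siGFP Bu replicate 2 had 97.8 CPM, where the nearest library had 102 CPM, and this gap made up 0.898 of the group's whole range. Ncaph2 in siGFP Bu replicate 3 had 396 CPM, where the nearest library had 423 CPM, a gap of 0.837 of the range. Both libraries are of the same group, and replicate 2 was the lowest for 7 of the 8 members.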

How the results depend on the processing

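All counts are from edgeR unless stated. In siGFP cells the members called numbered 6 to 8 when each library was left out in turn, in siTGR5 cells always 8, between siRNAs in DMSO 0 and under Bu 0 to 1, and for the interaction 0; the genes called for the interaction numbered 87 to 270, against 203 with all libraries. Opposite signs appeared, for differences near 0 that were never called, when a library was left out: between siRNAs in DMSO for Smc2 (-0.0189 to 0.0491), Smc4 (-0.0700 to 0.0152) and Ncapg (-0.0614 to 0.0161), under Bu for Smc2 (-0.00815 to 0.0957) and Smc4 (-0.0289 to 0.0376), and for the interaction for Smc2 (-0.0211 to 0.0864), Smc4 (-0.00766 to 0.0818) and Ncaph2 (-0.0201 to 0.0206). The nuclear-retained covariate gave 249 genes and 2 members called in siGFP cells, 2602 genes in siTGR5 cells, 1024 genes and 0 members between siRNAs under Bu, and 73 genes for the interaction, and turned Nsmce2 in siTGR5 cells (-0.00378), Smc4 between siRNAs under Bu (-0.0216) and Ncaph2 in the interaction (-0.0192). Leaving out the libraries over 5 CPM of rod transcripts, chosen after seeing that the planned limit of 1 CPM removes all siGFP libraries and could not be run, gave 2660 genes in siTGR5 cells, 2566 genes and 0 members between siRNAs under Bu and 47 genes for the interaction, and turned Nsmce2 in siTGR5 cells (-0.0189), Smc4 (0.0282) and Ncapg (0.0430) between siRNAs in DMSO, Ncapd2 between siRNAs under Bu (-0.0383), and Smc2 (-0.0296) and Smc4 (-0.00975) in the interaction. DESeq2 called 1 member between siRNAs in DMSO and 388 genes for the interaction, no low-count filter gave 411 for the interaction, and 1 fit of all 18 libraries called 2 members between siRNAs under Bu. Why these counts moved was not tested, beyond the fewer libraries or the added covariate of a fit.

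With the longest coding transcript, chosen after seeing the data, the shares of summed CPM per kb were 12.3% for Smc2, 17.4% for Smc4, 8.15% for Ncapd2, 8.51% for Ncapg, 8.66% for Ncaph, 3.63% for Ncapd3, 8.51% for Ncapg2 and 32.8% for Ncaph2, and condensin I minus II was -0.10 in siTGR5 Bu, -0.40 in siTGR5 DMSO, -0.0626 in siGFP Bu and -0.38 in siGFP DMSO. Same-numbered libraries did not deviate together, each correlating best with its own number in 0 of 4, 0 of 4, 1 of 5 and 1 of 4 pairs; with the replicate number as a block the members called were 8 in siGFP cells, Ncapd3 included (0.15, adjusted p = 0.0247), 8 in siTGR5 cells, 0 and 1 between siRNAs and 0 for the interaction, with 4314, 4066, 4493, 4225 and 265 genes. Slf1 (0.18, adjusted p = 0.013) and Nsmce4a (0.17, adjusted p = 0.0133) passed in siGFP cells with the block. RLE size factors and a mean of at least 1 CPM changed no member's call, and no filter lost Ncaph2 in siGFP cells (adjusted p = 0.057). The effect of depth on the members was not tested; their log2 fold changes had SEs of 0.03 to 0.08, which hold the spread between libraries as well as counting error.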
